A study of Oncorhynchus mykiss with 16 samples.

Results

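The comparison described here set 4 arrays of RNA from the livers of young rainbow trout (Oncorhynchus mykiss) held in 10% municipal wastewater effluent (MWWE) against 4 arrays from fish held at an upstream site with no effluent, the control. The arrays were chosen by their titles and are 8 of the 16 arrays of a study that also exposed fish to 50% and 100% effluent. The exposure took place in the field, so the effluent and the place where the fish were held cannot be told apart. Each array carried RNA of 1 pool of whole livers in one dye, and in the other dye a common pool made from all experimental samples. The labels call the 4 samples of a group biological replicates. The sources used here do not give the number of fish in a pool, the length of the exposure or the sex of the fish.

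The liver is the organ in which fish take up and break down many foreign compounds, and sewage effluents carry several kinds of them. Planar aromatic compounds act through the aryl hydrocarbon receptor, which turns on cytochrome P450 1A, an enzyme that oxidises them. Natural and synthetic estrogens act through estrogen receptors and turn on vitellogenin, the egg yolk precursor that the liver of mature females makes. Stress hormones act on the liver through the glucocorticoid receptor and raise glucose production. Which spots of the array stand for such genes is not known here: the files give each gene as a plain number, and 0 of the 152 numbers matched an entry of the RefSeq gene table at hand. Genes are therefore given by array ID, with no name, position or role, and the liver label could not be checked against marker genes.

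Values are log2 ratios of the sample over the common pool. A value of 1 means 2-fold more signal in the sample's dye than in the pool's dye after normalization. The array held 384 spots, of which 306 carried 152 gene IDs and 32 were blank. A gene was counted as above the blanks on an array where its mean signal, less the local background, lay above the mean of the blank spots plus 3 SD. In each group the sample was in Cy5 on 2 arrays and in Cy3 on 2.

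Signals were close to background on all 8 arrays. In Cy3 the median gene spot was 1.03 to 1.09 times as bright as its surroundings, and in Cy5 1.02 to 1.09 times. In the sample's dye, 43, 35, 103 and 144 genes were above the blanks on 10% replicates 1 to 4, against 33, 84, 118 and 48 genes on control replicates 1 to 4. The counts averaged 81.2 ± 51.7 genes in the 10% group and 70.8 ± 38.1 genes in control (SD, n = 4 each), and an exact permutation test gave p = 0.771 (two-sided; 4 against 4 can give 0.0286 at the lowest). On each of the 8 arrays more genes were above the blanks in Cy3 than in Cy5, whichever dye held the sample. In both dyes at once, 9 genes were above the blanks on all 8 arrays, 50 on at least 4 and 43 on none.

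**Figure D1:**
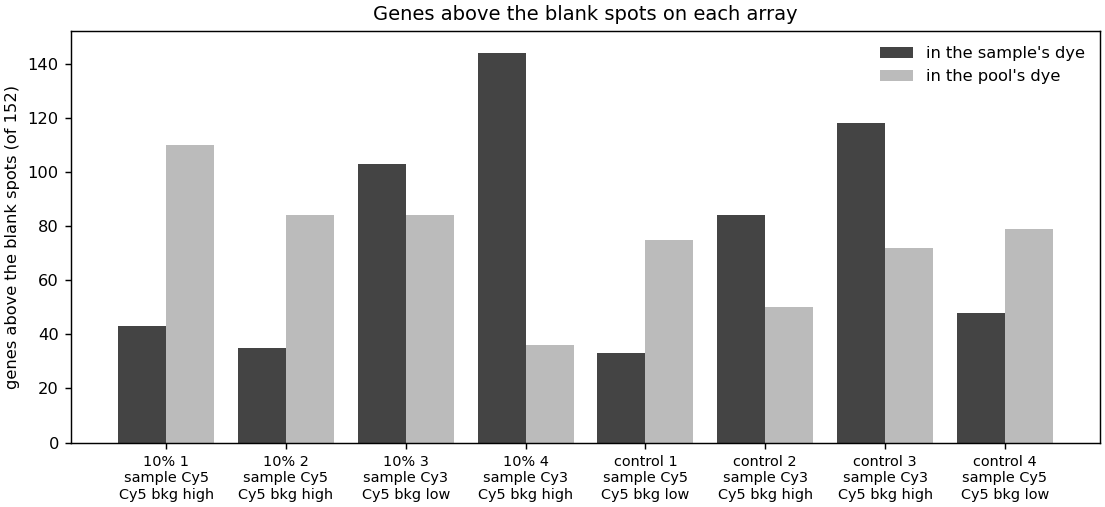
Number of the 152 genes that exceeded the blank spots on each array of the 10% and control groups, in the dye that held the sample (dark bars) and in the dye that held the common pool (light bars). With the sample in Cy5 the dark bar is the lower one (33 to 48 genes), and with the sample in Cy3 it is the higher one (84 to 144 genes), in both groups.

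The background level in Cy5 differed between arrays. Its median was 4943.5, 4884.4, 421.8 and 5599.6 on 10% replicates 1 to 4, against 445.6, 1598.5, 1800.1 and 418.3 on control replicates 1 to 4. The 10% arrays averaged 3962 ± 2382 and the control arrays 1066 ± 736 (SD, n = 4 each; exact permutation test, two-sided p = 0.114). An array is called high in Cy5 background where the median exceeded 1000. That held for 3 arrays of the 10% group and 2 control arrays, and 10% replicate 3 was the only 10% array below it. The part of this background in the results below was not tested beyond the values given beside them.

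The direction of 10% replicate 4 is in doubt. Over the spots of all genes but ID 160, the authors' deposited log ratios correlated with the sample-over-pool ratios after loess alone, with no background correction, at 0.859, 0.991 and 0.980 on 10% replicates 1 to 3 and at 0.640 to 0.974 on the control arrays, but at -0.560 on 10% replicate 4. By its dye label, 10% replicate 4 correlated with 10% replicates 1, 2 and 3 at -0.58, -0.32 and 0.12 over the 152 genes, and with control replicate 2 at 0.52. Control replicates 2 and 3, also in Cy3 and high in Cy5 background, correlated with 10% replicates 1 and 2 at -0.48 to -0.22. With each other those control arrays correlated at 0.43. Negative correlations with 10% replicates 1 and 2 were thus also seen for those control arrays, but these are pairs across groups. The pairs within a group that do not hold 10% replicate 4 correlated at -0.13 to 0.43. Whether the dyes of 10% replicate 4 were exchanged was not tested. The counts of genes and the differences of the named genes are therefore given with this array as labelled and with it left out.

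Correlations between arrays of the same group and between arrays of the 2 groups covered overlapping ranges. Across genes, which are not independent replicates, pairs of 10% arrays correlated at -0.58 to 0.42 (median -0.10, 6 pairs), pairs of control arrays at -0.13 to 0.43 (median 0.14, 6 pairs) and pairs of a 10% and a control array at -0.48 to 0.52 (median -0.05, 16 pairs). Without 10% replicate 4 the pairs of 10% arrays were at -0.13 to 0.42 and the pairs across groups at -0.48 to 0.18. Written as Cy5 over Cy3 in place of sample over pool, the 10 pairs of arrays that were both high in Cy5 background correlated at 0.22 to 0.58 (median 0.42), across both groups and both dye orientations, and the other 18 pairs at -0.25 to 0.29 (median 0.01). The lowest correlation between arrays of the same dye orientation was -0.25. All these arrays share the common pool and the gene spots.

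**Figure D2:**
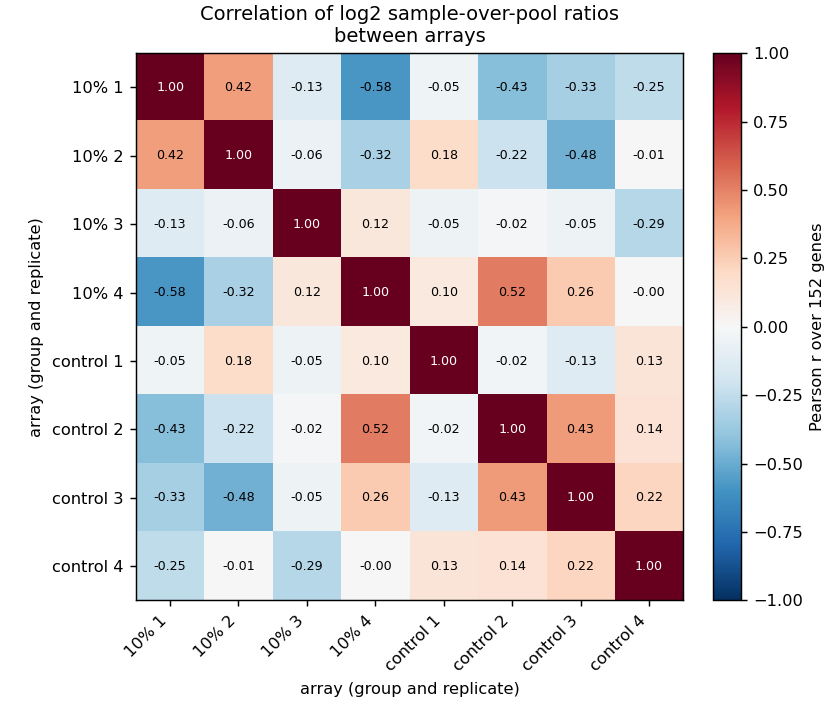
Pearson correlation over 152 genes between the log2 sample-over-pool ratios of the 8 arrays, the 10% arrays first. Correlations within a group and across groups cover overlapping ranges, and 10% replicate 4 stands at -0.58 and -0.32 against 10% replicates 1 and 2 and at 0.52 against control replicate 2.

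After loess normalization no gene passed the adjusted threshold between 10% effluent and control, with 10% replicate 4 as labelled or out, but calls were made under other settings. With median centring in place of loess, 2 genes passed by limma as labelled and 27 without 10% replicate 4, and 29 genes (20 higher, 9 lower) and 56 genes (26 higher, 30 lower) had an unadjusted p under 0.05. With loess and as labelled, 0 of 152 genes (0%) passed an adjusted p of 0.05 in limma's moderated test with Benjamini-Hochberg adjustment, and the smallest adjusted p was 0.519. At an unadjusted p under 0.05 there were 11 genes (7.24% of those tested), 5 higher and 6 lower, where 7.6 would be called if nothing differed. Leaving out single arrays moved that count to 4 (10% replicate 1), 5 (control replicate 4), 7 (control replicate 1) and 20 (10% replicate 4). With 10% replicate 4 left out, 0 of 152 genes (0%) passed, the smallest adjusted p was 0.178, and 20 genes (13.2%), 7 higher and 13 lower, had an unadjusted p under 0.05. Of these lists, 7 genes were in both, which is 63.6% of the list as labelled and 35.0% of the list without that array. Leaving out 10% replicate 3 as well raised the unadjusted count to 31 and let 6 genes pass, in a fit whose 10% group is then replicates 1 and 2, both with the sample in Cy5 and both high in Cy5 background. Leaving out control replicate 2 from the fit as labelled let 1 gene pass, gene 178.

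The direction of that array was also turned, as if its dyes had been exchanged. Then 0 of 152 genes passed, 20 genes (13.2%) had an unadjusted p under 0.05, and 3 genes, 26, 42 and 121, shared the smallest adjusted p of 0.0546 by limma. All 3 were lower in the 10% group, at differences of -0.59, -1.19 and -3.16. The call depends on how the array is turned: with its ratio turned but its dye term kept as labelled, a version chosen after seeing the data, these 3 genes passed at -0.59, -1.25 and -3.34 (adjusted p 0.0438 by limma), and 30 genes had an unadjusted p under 0.05. Gene 121 lies outside the rule by which genes are named and was chosen after its values were seen.

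Most differences were small. As labelled, 65 genes had a positive and 87 a negative difference of 10% minus control, with a median size of 0.16 on the log2 scale and a range of -1.78 to 1.77. The difference exceeded 1.5-fold for 6 genes, 3 in each direction, and 2-fold for 4 genes, 2 in each direction. The median size was 0.22 without 10% replicate 4, 13 genes exceeded 1.5-fold, 8 higher and 5 lower, and 4 exceeded 2-fold, 1 higher and 3 lower. Sizes were larger without the array for 101 of the 152 genes, and the sign changed for 15. A missed threshold does not show that the groups were alike, but the intervals bound the difference. The 95% interval lay within 2-fold in both directions for 130 genes (85.5%) as labelled and 123 genes (80.9%) without 10% replicate 4, and it lay within 1.5-fold for 86 and 71 genes. Among the 13 genes above the blanks in the sample's dye on all 8 arrays, it lay within 2-fold for 6 as labelled. Without 10% replicate 4 it did so for 3 of those 13. The offset of 50 added in the background correction pulls ratios of dim spots towards 0, so these bounds hold on that compressed scale.

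**Figure D3:**
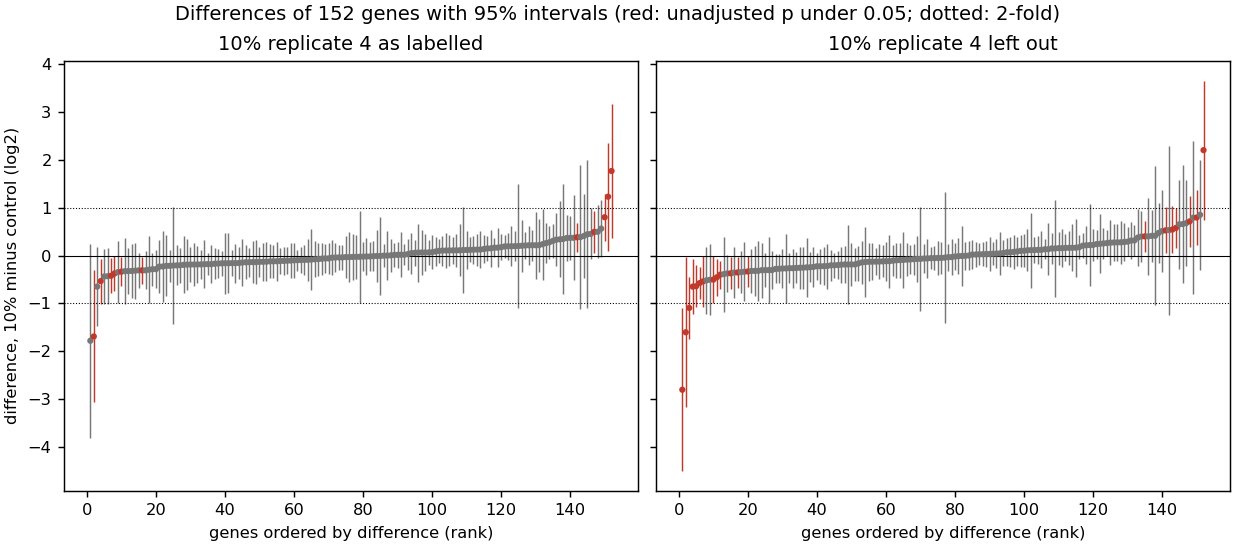
Difference of 10% minus control for each of 152 genes on the log2 scale, ordered by size, with its 95% interval from limma; the left panel has 10% replicate 4 as labelled and the right panel leaves it out. Red marks the 11 and 20 genes at an unadjusted p under 0.05, and the dotted lines mark 2-fold, which the interval of 22 genes (left) and 29 genes (right) reached or passed.

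Genes above the blanks on every array had both the largest differences and the largest errors. In the sample's dye, 13 genes were above the blanks on all 8 arrays, 66 on 4 to 7 and 73 on fewer than 4. Among the 13, differences ran from -1.78 to 1.77 as labelled, with 5 higher and 8 lower, and their median standard error was 0.45, against 0.21 for the 66 genes and 0.15 for the 73 genes. All 4 genes past 2-fold as labelled, and 3 of the 4 without 10% replicate 4, were among the 13. At an unadjusted p under 0.05 there were 3 of the 13 genes, 2 of the 66 and 6 of the 73. These counts were 3, 10 and 7 without 10% replicate 4, and the 10 of the 66 genes were 3 higher and 7 lower.

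Values in the 10% group spread more than in control. The SD over the 4 arrays of a gene had a median of 0.33 in the 10% group and 0.21 in control, and was larger in the 10% group for 105 of 152 genes. Over 10% replicates 1 to 3 the median SD was 0.26, and 86 genes had the larger SD in the 10% group. Spots of a gene on the same array also differed. The first and second spot lay a median of 0.31, 0.26, 0.20 and 0.35 apart on 10% replicates 1 to 4. On control replicates 1 to 4 that median was 0.22, 0.15, 0.18 and 0.21. The part of this spread within arrays in the larger SD was not tested.

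Groups that do not overlap were rare as labelled. In 2 of 152 genes (1.32%) all 4 values of the 10% group lay on one side of all 4 control values. These were gene 98, higher by 0.38 (SE 0.14), and gene 156, lower with a difference of -0.22 (SE 0.16), with adjusted p of 0.533 and 0.788 by limma. Each was above the blanks in the sample's dye on 3 of the 8 arrays, and both were chosen after their values were seen. With 10% replicate 4 left out, 3 values lay on one side of 4 in 16 genes (10.5%), 7 higher and 9 lower. The size of their differences was between 0.15 and 2.80, and 6 of the 16 were above the blanks on at least 4 of the 8 arrays. If all orders of the 8 values were equally likely, 4 values would separate from 4 at a share of 0.0286. By chance 3 values separate from 4 more often than that, so the 1.32% and 10.5% are not on equal terms.

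The genes of smallest p were read array by array. The rule took, from each of the fits, the 2 genes of smallest p in each direction: genes 178, 131, 144 and 26 as labelled, and genes 131, 160, 26 and 42 without 10% replicate 4. These values chose the genes, so they are a description of the extremes of the list. In neither fit did any of the 6 pass after adjustment. In the fit as labelled the dyes were balanced in both groups, so each difference equals that of the group means.

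Gene 178 had the smallest p as labelled. It was at 0.42, 0.28, 0.40 and 0.90 on 10% replicates 1 to 4, against -0.58, 0.48, -0.58 and -0.51 on control replicates 1 to 4. Control replicate 2 lay among the 10% values, and the other 3 control arrays lay below all of them. The means were 0.50 ± 0.27 in the 10% group and -0.30 ± 0.52 in control (SD, n = 4 each), a difference of 0.80 (SE 0.23; 1.74-fold; limma's adjusted p 0.519). It was 0.71 (SE 0.25; adjusted p 0.219 by limma) without 10% replicate 4, the highest of its values, and 0.44 (adjusted p 0.441) with that array turned. The gene was dim. In the sample's dye its spots stood at 1.07, 1.04, 1.45 and 1.20 times background on 10% replicates 1 to 4. On control replicates 1 to 4 they stood at 1.11, 1.09, 1.00 and 1.13 times in that dye. In the pool's dye they stood at 1.05, 1.04, 1.24 and 1.11 times on the 10% arrays. The control arrays had 1.25, 1.11, 1.10 and 1.27 times there. With the sample in Cy5, the 10% arrays thus stood fewer times above background than control in both dyes, more so in the pool's dye. Cy5 background was higher on those 10% arrays. Signal less background in the sample's dye was 401 and 242 on them, against 54.7 and 54.3 on control replicates 1 and 4. In the sample's dye the gene passed the blanks on 10% replicates 3 and 4 and control replicate 2. Without control replicate 2 the difference was 1.02 and passed (adjusted p 0.0349 by limma; range 0.0349 to 0.873 over its alternatives). Both spots of the gene ran the same way, with differences of 0.77 and 0.83 for the first and second spot. Without background correction the difference was 0.15, and in the authors' deposited ratios 0.07.

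Gene 131 had a higher ratio of sample over pool at 10% and was named by the rule in both fits. It was at 1.62, 0.58, 0.71 and -0.40 on 10% replicates 1 to 4, against -0.35, -0.01, -2.15 and -2.05 on control replicates 1 to 4. The 10% values lay above all control values except for replicate 4, which lay below control replicates 1 and 2. The means were 0.63 ± 0.83 in the 10% group and -1.14 ± 1.12 in control (SD, n = 4 each), a difference of 1.77 (SE 0.65; 3.40-fold; limma's adjusted p 0.533). Leaving out 10% replicate 4, it was 2.20 (SE 0.67; 4.60-fold; adjusted p 0.216 by limma). On all 8 arrays it was above the blanks in the sample's dye. In the sample's dye its spots stood at 3.54, 3.41, 2.99 and 1.12 times background on 10% replicates 1 to 4, against 3.78, 1.18, 1.27 and 6.28 times on control replicates 1 to 4. In the pool's dye it stood at 1.14, 1.17, 1.76 and 1.38 times background on the 10% arrays, against 6.03, 2.69, 24.5 and 12.0 times on the control arrays. In times background the groups thus stood apart in the dye of the pool, the same RNA on every array, and overlapped in the dye of the sample. With the sample in Cy5, sample signal less background was 14532 and 14239 on the 10% arrays, against 1529 and 2218 on the control arrays. Cy5 background was higher on those 10% arrays. With the sample in Cy3 it was 797 and 72 on the 10% arrays, against 62 and 97 on the control arrays. With the class of Cy5 background as a block the difference was 1.87 as labelled and 2.24 without 10% replicate 4. Among arrays of high background alone it was 1.85 as labelled but 4.79 without 10% replicate 4, and among those of low background, which do not hold that array, 1.87. The deposited ratios gave 0.88. With median centring in place of loess it was 4.09 as labelled and 4.90 without 10% replicate 4, and passed in both (adjusted p 0.0123 and 0.00155 by limma; range 0.0123 to 0.873 and 0.00155 to 0.950 over its alternatives).

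Gene 144 had a lower mean ratio of sample over pool at 10%. It was at -0.17, -2.14, -0.32 and -0.16 on 10% replicates 1 to 4, against -0.85, 1.38, 3.50 and -0.06 on control replicates 1 to 4. The groups overlapped, and the highest values were those of control replicates 2 and 3, the control arrays with the sample in Cy3 and a high Cy5 background. The means were -0.70 ± 0.96 in the 10% group and 0.99 ± 1.91 in control (SD, n = 4 each), a difference of -1.69 (SE 0.64; 3.23-fold lower; limma's adjusted p 0.533). It was -1.05 without control replicate 3 and -1.60 (SE 0.73; adjusted p 0.352 by limma) without 10% replicate 4. In the sample's dye its spots stood at 12.5, 11.1, 7.54 and 1.71 times background on 10% replicates 1 to 4. On control replicates 1 to 4 they stood at 2.29, 2.88, 8.44 and 21.2 times in that dye. In the pool's dye they stood at 2.12, 2.12, 11.3 and 8.88 times on the 10% arrays. The control arrays had 4.78, 23.5, 27.8 and 8.51 times there. In times background the groups thus overlapped in each dye. With the sample in Cy5, sample signal less background was 31771 and 38502 on the 10% arrays, against 521 and 9052 on the control arrays. With the sample in Cy3 it was 2517 and 343 on the 10% arrays, against 619 and 2620 on the control arrays. On control replicates 2 and 3, which hold its highest ratios, the pool's dye stood further above background than the sample's dye. The log2 ratio of 3.50 on control replicate 3 is the distance from that array's loess curve. With median centring the difference was 1.77, and on the arrays of low Cy5 background (1 of the 10% group, 2 of control) it was 0.28, so its direction turned under both. The deposited ratios gave -0.33.

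Gene 26 had a lower ratio of sample over pool at 10% in both fits and the smallest p of all genes without 10% replicate 4. It was at -0.65, -0.19, -0.01 and 0.34 on 10% replicates 1 to 4, against 0.34, 0.18, 0.27 and 0.39 on control replicates 1 to 4. Replicates 1 to 3 of the 10% group lay below all control values, and replicate 4 lay among them. The means were -0.13 ± 0.41 in the 10% group and 0.29 ± 0.09 in control (SD, n = 4 each), a difference of -0.42 (SE 0.17; limma's adjusted p 0.533). With 10% replicate 4 out it was -0.58 (SE 0.16; 1.49-fold lower; adjusted p 0.178 by limma). The gene was at the edge of detection: its spots stood at 0.99 to 1.09 times background in the sample's dye on the 10% arrays, against 1.03 to 1.10 times on the control arrays, and it passed the blanks there on 10% replicates 3 and 4 and control replicate 3. In the pool's dye its spots stood at 1.11, 1.07, 1.07 and 1.01 times background on 10% replicates 1 to 4. On control replicates 1 to 4 they stood at 1.03, 0.98, 0.99 and 1.04 times in that dye. Replicates 1 to 3 of the 10% group thus stood above control in the dye of the pool and overlapped control in the dye of the sample. Without 10% replicate 1 the difference as labelled was -0.25, and among arrays of high Cy5 background alone it was -0.09 as labelled and -0.61 without 10% replicate 4. The deposited ratios gave -0.19, and subtracting the background gave -2.29 as labelled (adjusted p 0.325 by limma).

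Genes 42 and 160 were named only by the fit without 10% replicate 4. Gene 42 was at -1.06, -0.98, -0.12 and 1.21 on 10% replicates 1 to 4, against 1.05, 0.41, 0.44 and -0.26 on control replicates 1 to 4. The highest of the 8 values is 10% replicate 4 and the lowest 10% replicate 1. Its difference without replicate 4 was -1.09 (SE 0.30; adjusted p 0.178 by limma), against -0.65 (SE 0.38; adjusted p 0.692) as labelled. It was not above the blanks in the sample's dye on any of the 3 remaining 10% arrays, so its level there is only bounded. That bound leaves no fold to give, since the lowest signal above the blanks on those arrays was on average higher than its control level. In the pool's dye the spots of gene 42 stood at 1.17, 1.15, 0.98 and 0.99 times background on 10% replicates 1 to 4. On control replicates 1 to 4 they stood at 1.03, 1.03, 1.02 and 1.00 times in that dye. Only 10% replicates 1 and 2, which hold its lowest ratios, had it above the blanks in the dye of the pool. The difference without replicate 4 was -4.85 with background subtracted and -0.21 with no background correction (adjusted p 0.309 and 0.0958 by limma).

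Gene 160 was at 1.17, 0.76, -0.18 and -0.52 on 10% replicates 1 to 4, against -0.11, -0.34, -0.41 and -0.16 on control replicates 1 to 4. The 2 high values are those of the 10% arrays with the sample in Cy5, and the other 10% values lay below or among the control values. The difference without replicate 4 was 0.79 (SE 0.27; 1.73-fold; adjusted p 0.216 by limma), against 0.56 (SE 0.28; adjusted p 0.692) as labelled. All 4 arrays of the 10% group and 2 control arrays had it above the blanks in the sample's dye. There its spots stood at 1.70, 1.37, 1.635 and 1.06 times background on 10% replicates 1 to 4. On control replicates 1 to 4 they stood at 1.12, 1.02, 1.09 and 1.73 times. In the pool's dye they stood at 1.04, 1.02, 1.71 and 1.16 times on the 10% arrays. The control arrays had 1.21, 1.15, 2.85 and 1.65 times in that dye. Only 10% replicates 1 and 2, which hold its highest ratios, did not have it above the blanks in the dye of the pool. Its 4 spots did not repeat well: on 10% replicate 1 the first spot was at 2.66 and the second at 0.19. Among arrays of low Cy5 background alone the difference was -0.54. There the lone 10% array, replicate 3 at -0.18, has the sample in Cy3. The control arrays there, replicates 1 and 4 at -0.11 and -0.16, have it in Cy5. That difference thus depends on a dye term taken from the 50% arrays.

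Gene 121 was above the blanks in the sample's dye on all 8 arrays and had the largest difference without 10% replicate 4. It was at -3.78, -0.10, -0.23 and 3.13 on 10% replicates 1 to 4, against 0.88, 2.73, 1.75 and 0.78 on control replicates 1 to 4. Replicates 1 to 3 of the 10% group lay below all control values, and replicate 4 lay above all of them. The difference was -2.80 (SE 0.79; adjusted p 0.178 by limma) without that array, against -1.78 (SE 0.94; adjusted p 0.692) as labelled.

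**Figure D4:**
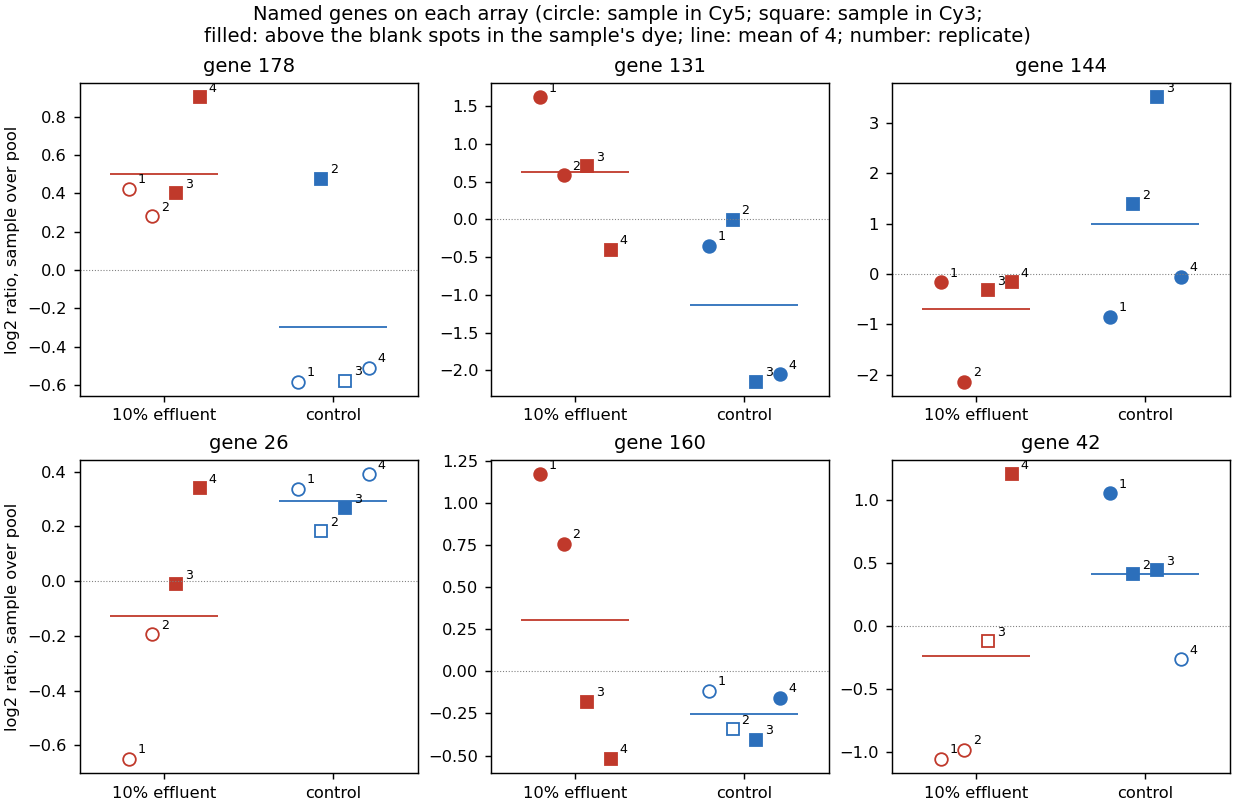
Log2 ratio of sample over pool for the 6 named genes on each array, 10% effluent left and control right, with the replicate number beside each point and a line at the mean of 4. Circles have the sample in Cy5 and squares in Cy3, filled points exceed the blanks in the dye of the sample, and replicate 4 of the 10% group is the highest 10% value in genes 178, 144, 26 and 42 and the lowest in genes 131 and 160.

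The comparison was also made within each dye orientation, where 10% replicates 1 and 2 stand against control replicates 1 and 4 with the sample in Cy5, and 10% replicates 3 and 4 against control replicates 2 and 3 with the sample in Cy3. These are disjoint arrays, 2 against 2, so the values are given without a test. The differences had the same sign in both orientations for 68 of 152 genes (44.7%), and correlated at 0.07 across genes. Their median size was 0.32 in the Cy5 arrays and 0.16 in the Cy3 arrays. With 10% replicate 4 left out, so that 10% replicate 3 stands alone in Cy3, the sign was the same for 78 genes (51.3%) and the correlation 0.34. As labelled, 5 genes exceeded 1.5-fold in the same direction in both orientations, 3 higher and 2 lower, and 4 genes did so in opposite directions. Without 10% replicate 4 these were 4 genes, 2 higher and 2 lower, and 2 genes in opposite directions. Gene 131 was higher in both, by 2.30 in Cy5 and by 1.23 in Cy3 (1.78 without 10% replicate 4). Gene 178 was higher by 0.90 in Cy5 and by 0.70 in Cy3 (0.45 without that array). Gene 144 was lower in both, at -0.70 in Cy5 and -2.68 in Cy3 (-2.76 without the array). The other named genes had smaller differences in Cy3 than in Cy5, with or without that array. Gene 26 was at -0.78 in Cy5 and at -0.06 in Cy3, or -0.24 without it. Gene 42 was at -1.42 in Cy5 and at 0.12 in Cy3, which turned to -0.55 without it. Gene 160 was at 1.10 in Cy5 and at 0.03 in Cy3, or 0.19 without it. Both 10% arrays in Cy5 were high in Cy5 background and both control arrays in Cy5 were low, so in that orientation the group and the background cannot be told apart. The same holds in Cy3 without 10% replicate 4, where 10% replicate 3 is low and control replicates 2 and 3 are high.

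**Figure D5:**
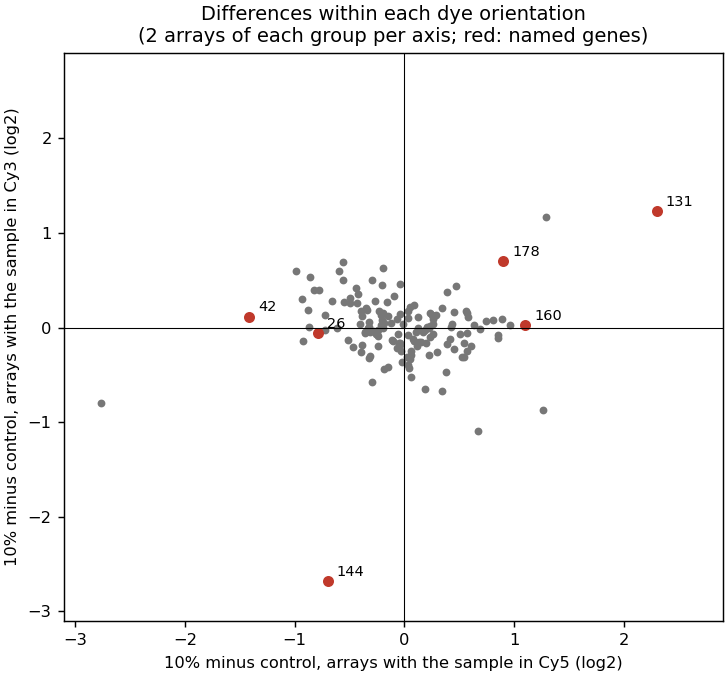
Difference of 10% minus control in the arrays with the sample in Cy5 (horizontal axis) and in those with the sample in Cy3 (vertical axis), log2 scale, 1 point per gene, 152 genes, 2 arrays of each group per axis, 10% replicate 4 as labelled. The correlation over all points is 0.07, and genes 131 and 178 lie at the upper right, at 2.30 and 1.23, and 0.90 and 0.70.

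Where the class of Cy5 background was held alike, which also leaves fewer arrays or degrees of freedom, fewer genes were called. The class does not hold the level of background alike. In the high class the median was 4884.4 to 5599.6 on the 10% arrays, against 1598.5 and 1800.1 on the control arrays. With the class of background as a block, 8 genes as labelled and 17 without 10% replicate 4 had an unadjusted p under 0.05. Among arrays of high background alone there were 5 and 2, and among those of low background alone 4, and no gene passed the adjusted threshold in any of them by limma. Arrays of high background alone hold 2 control arrays and 3 or 2 arrays of the 10% group. In the version of 2 the 10% samples are all in Cy5 and the control samples all in Cy3, and the dye term rests on the 100% arrays alone. In the low class the lone 10% array is taken to vary as the remaining arrays do. Its sample is in Cy3 and both control samples are in Cy5, so the dye term there rests on the 50% arrays alone.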

How the data were processed

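Liver RNA of 8 pools was measured on 2-colour cDNA arrays. Per the file headers, scanner output holds mean intensity per spot and around it for Cy3 and Cy5, with no subtraction or dye normalization by the authors. The sources used here do not name the scanner or image software. They differ on dyes: the series' design has them assigned at random and the labels' protocol has them exchanged from array to array. The dye label of each array was used. Deposited log ratios per spot, read as log2 from their slopes on the scanner values (-0.24 to 0.98 on these arrays), carry no stated scale or direction. Their medians lay between -0.00735 and 0, and they served only as an alternative.

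In limma 3.58.1 under R 4.3.3, normexp (offset 50) corrected the background and loess (span 0.3) normalized each array, blank spots and those named Q and SSC having weight 0. Ratios were turned to sample over pool by the dye labels and averaged over a gene's spots. All 16 arrays, or 15 without 10% replicate 4, entered one fit of group means with a dye term (lmFit, eBayes; 11 and 10 residual degrees of freedom), with Benjamini-Hochberg adjustment over 152 genes. The fit was tested on simulated data with independent noise on each array. Those data held no Cy5 background pattern, no dim spots and no array of doubtful direction, so the test does not cover these.

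Each pool had 1 array, so p-values cover spread between pools and between arrays together, and the number of arrays limits the precision. The comparison, the named-gene rule and the alternatives were chosen with earlier results of these data known. The class of Cy5 background and the rule for blanks come from those earlier results. Named genes were the 2 of smallest p in each direction in each fit. No gene lists were tested, since IDs carry no names. For a gene not above the blanks on any array of a group, a bound was computed per channel after loess and Aquantile.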

Additional observations from a re-analysis of the deposited data

Results flagged for a closer look

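In 3 of 22 groups of 4 values, 1 value stood far off the rest, which by chance happens in about 1 group in 20. For gene 144 it was 10% replicate 2 at -2.14, while 10% replicates 1, 3 and 4 lay between -0.32 and -0.16. For gene 178 it was control replicate 2 at 0.48, while control replicates 1, 3 and 4 lay between -0.58 and -0.51. The median Cy5 background was 422 on 10% replicate 3, against 4884 to 5600 on the other 10% arrays. No comparison uses the spots named Q, and the files do not state their content. Over the 8 arrays, 62.5% of their Cy3 values and 51.8% of their Cy5 values exceeded the limit set by the blanks, against 0% and 0.781% of the blank spots' own values.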

How the results depend on the processing

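Signals were close to background, and 43 of 152 genes were above the blanks in both dyes on none of the 8 arrays. The cause of the changes below was not tested. With single arrays left out in turn, 0 to 1 genes passed the adjusted threshold by limma as labelled and 0 to 6 without 10% replicate 4, and 4 to 20 and 14 to 31 genes had an unadjusted p under 0.05. Median centring passed 2 genes as labelled and 27 without 10% replicate 4, with unadjusted counts of 29 (20 higher, 9 lower) and 56 (26 higher, 30 lower). Turning 10% replicate 4 gave an unadjusted count of 20. Turning its ratio but keeping its dye term as labelled, a version chosen after seeing the data, gave 30 and passed 3 genes (26, 42 and 121). Other unadjusted counts as labelled were 7 with the 10% and control arrays alone, 6 with no background correction, 23 with the authors' deposited ratios (4 higher, 19 lower), 5 with a filter on dim genes (79 genes tested), 5 and 4 on arrays of high and low Cy5 background alone, and 6 with array weights. Without 10% replicate 4 they were 10 with the filter, and 2 and 4 on arrays of high and low background. The deposited ratios run opposite to the label on 10% replicate 4, and without that array they gave 21 (4 higher, 17 lower). Reversed differences were 1.77 (median centring) and 0.28 (low Cy5 background) for gene 144, and -0.54 (low Cy5 background) for gene 160.

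With the replicate number as a block (replicate block), each fit had 14 genes at an unadjusted p under 0.05, and 0 passed by limma. Same-numbered arrays of the 2 groups deviated from their group means with correlations of 0.13, -0.14, 0.24 and -0.25 for replicates 1 to 4 as labelled, of 0.07, 0.01 and 0.30 for replicates 1 to 3 without 10% replicate 4, and of 0.10, 0.12, 0.25 and 0.32 with it turned. The sign for replicates 2 and 4 thus changed when that array was turned. By the dye labels, same-numbered arrays share the sample's dye for replicates 1 and 3 and have opposite dyes for replicates 2 and 4. Whether the numbers pair the samples was not tested. With it turned and the replicate number as a block, chosen after seeing the data, 22 genes had an unadjusted p under 0.05 and 0 passed (smallest adjusted p 0.0875 by limma).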
